A study of Mus musculus with 6 samples.

Results

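The mitochondrial genome of the mouse is a small circular DNA that carries 13 protein genes, 22 tRNA genes and 2 rRNA genes, and its protein and tRNA genes were followed here in sorted blood stem cells. Members were taken by symbol: ND1 to ND6 with ND4L, COX1 to COX3, ATP6, ATP8 and CYTB for the proteins, and Trn followed by the letter of the amino acid for the tRNAs. The rule found 26 of the 18465 gene rows, namely all 13 protein genes and 13 of the 22 tRNA genes. The tRNA genes found were TrnV, TrnL1, TrnI, TrnQ, TrnM, TrnA, TrnS1, TrnK, TrnG, TrnH, TrnE, TrnT and TrnP. The other 9 (TrnF, TrnW, TrnN, TrnC, TrnY, TrnD, TrnR, TrnS2 and TrnL2) were not among the gene rows and could not be followed. All 26 members passed the filter for testing, a mean of at least 1 TPM (the length-scaled expression unit explained further on). The rows mt-Rnr1 and mt-Rnr2, the small and large rRNA of the mitochondrial ribosome, lie outside the rule and are given as neighbours.

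RNA was sequenced from bone marrow cells of C57BL/6 mice, sorted as SLAM-LSK cells (CD150+, CD48-, lineage-, Sca1+, cKit+), a gate rich in long-term blood stem cells. There were 3 wild-type (WT) libraries and 3 libraries of the genotype MecomWT:R751W, in which 1 Mecom allele is wild type and the other carries R751W. Mecom encodes a zinc finger transcription factor of blood stem cells, and no treatment is named for either group. The labels call the libraries biological replicates without naming the mice behind them, and every p-value therefore measures a spread between samples that may be technical.

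Mitochondrial DNA is read from both strands into long precursor RNAs that hold many genes end to end. In most places a tRNA sits between the coding genes, and the enzymes RNase P and ELAC2 cut it out at its start and its end, which frees the mRNAs and rRNAs on either side. The proteins are core subunits of respiratory chain complexes I, III and IV and of ATP synthase, and the tRNAs and rRNAs serve only the ribosomes inside the organelle. Blood stem cells at rest are known for low respiration.

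TPM divides each gene's reads by its length and scales every library to the same total, which puts genes of different length on 1 scale. How well RNAs as short as tRNAs were captured was not tested, nor whether tRNA reads came from uncut precursors. Levels of tRNA genes, set against each other or against protein genes, are therefore levels of reads and may not be those of mature tRNA. The values were whole multiples of what 1 read is worth, within 0.02 reads, for 99.94% of the genes, and the gene lengths this implied were equal to the RefSeq lengths for all 28 listed mitochondrial rows. This gave 10887921 to 12731141 reads per library. The 13 protein genes together held 111201 to 134936 of these reads per library, and the 13 tRNA genes 515 to 912. All 8 markers of the sorted stem cells were listed, with a summed level of 416.7 to 483.8 TPM in WT and 367.6 to 441.5 TPM in MecomWT:R751W. Mecom itself was at 42.9, 34.9 and 36.9 TPM in WT and at 50.9, 39.95 and 44.0 TPM in MecomWT:R751W, and a gene total does not separate the alleles. The 6 listed erythroid markers summed to 10.8 to 15.4 TPM in WT and 17.6 to 28.8 TPM in MecomWT:R751W, and the 3 listed T and NK markers to 6.91 to 8.09 and 17.03 to 19.2 TPM, with Cd3d, Cd3e, Cd3g and Cd8a not listed. Marker levels of other cell types overlapped between WT and MecomWT:R751W. They were 5.30 to 8.21 and 6.38 to 8.11 TPM for B cells, and 96.4 to 111.7 and 86.5 to 111.9 TPM for myeloid cells. For megakaryocytes and platelets they were 123.3 to 144.7 and 109.6 to 163.3 TPM. Mast cell and basophil markers (0.90 to 2.12 and 0.93 to 2.17 TPM) and those of stroma and endothelium (17.8 to 22.5 and 15.3 to 22.1 TPM) overlapped too. The part of these markers in any result below was not tested.

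The tRNA genes that mark the ends of the range of levels, or that differed most between libraries, are shown first, since the largest spreads between libraries were found among them. Sequences are the RNA sense strand, 5′ to 3′, on GRCm38, from RefSeq coordinates and the transcripts of the matching annotation, with the anticodon in capitals. TrnP (chrM:15356-15422, minus strand, for proline) was the highest, TrnG (chrM:9391-9458, plus strand, glycine) the second highest, and TrnL1 (chrM:2676-2750, plus strand, leucine) the lowest. TrnM (chrM:3845-3913, plus strand, methionine) spread most between libraries, and TrnE (chrM:14071-14139, minus strand, glutamate) and TrnS1 (chrM:6870-6938, minus strand, serine) had the smallest p-values.
TrnP: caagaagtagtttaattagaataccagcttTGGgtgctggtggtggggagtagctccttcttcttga
TrnG: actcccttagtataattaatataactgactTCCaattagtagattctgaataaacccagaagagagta
TrnL1: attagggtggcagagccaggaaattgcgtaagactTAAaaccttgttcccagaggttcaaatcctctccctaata
TrnM: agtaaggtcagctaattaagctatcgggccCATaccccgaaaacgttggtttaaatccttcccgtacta
TrnE: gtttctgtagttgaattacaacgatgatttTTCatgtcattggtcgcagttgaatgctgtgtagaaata
TrnS1: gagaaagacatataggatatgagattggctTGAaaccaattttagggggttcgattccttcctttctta

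Neighbouring protein genes share bases in 4 places. Where both genes lie on the same strand, a read within the shared bases cannot be given to 1 of them by position. ATP6 and COX3 share 1 base, and the other pairs share more. ATP8 and ATP6 share 43 bases in the window chrM:7912-7984, ND4L and ND4 share 7 bases in chrM:10152-10188, and ND5 and ND6, which lie on opposite strands, share 14 bases in chrM:13537-13580. The windows are shown on the plus strand of GRCm38 with the shared bases in capitals, since the ratios within these pairs are described further on.
ATP8 and ATP6: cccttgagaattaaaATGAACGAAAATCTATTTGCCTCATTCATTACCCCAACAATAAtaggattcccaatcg
ND4L and ND4: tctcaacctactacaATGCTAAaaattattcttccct
ND5 and ND6: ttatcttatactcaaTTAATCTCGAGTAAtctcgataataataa
The counting of shared bases, of nuclear copies of mitochondrial DNA and of antisense reads is undescribed in the labels, so values of overlapping genes are uncertain to that degree. The level of ND6 and of the 5 listed tRNA genes on the minus strand could therefore include RNA of the other strand.

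The mitochondrial protein genes showed no difference between the genotypes beyond the spread between libraries. Together they held 1.73%, 1.47% and 1.61% of the TPM of the WT libraries and 1.76%, 1.46% and 1.64% of the MecomWT:R751W libraries, or 1.61% ± 0.130 and 1.62% ± 0.147 (SD, n = 3 each). Replicate 2 was the lowest of its group in both genotypes and the groups overlapped. In such bulk samples fewer cells of a type and less RNA per cell cannot be told apart. The tRNA genes held 0.132%, 0.135% and 0.139% of the TPM in WT and 0.106%, 0.169% and 0.111% in MecomWT:R751W, or 0.135% ± 0.00312 and 0.128% ± 0.0352 (SD, n = 3 each). The WT libraries lay close together, whereas MecomWT:R751W replicate 2 was above all of them and replicates 1 and 3 were below all of them. The 2 rRNA rows held 8.84% to 10.7% of the TPM, although the listed kits include rRNA depletion, and overlapped between the groups as well.

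**Figure D1:**
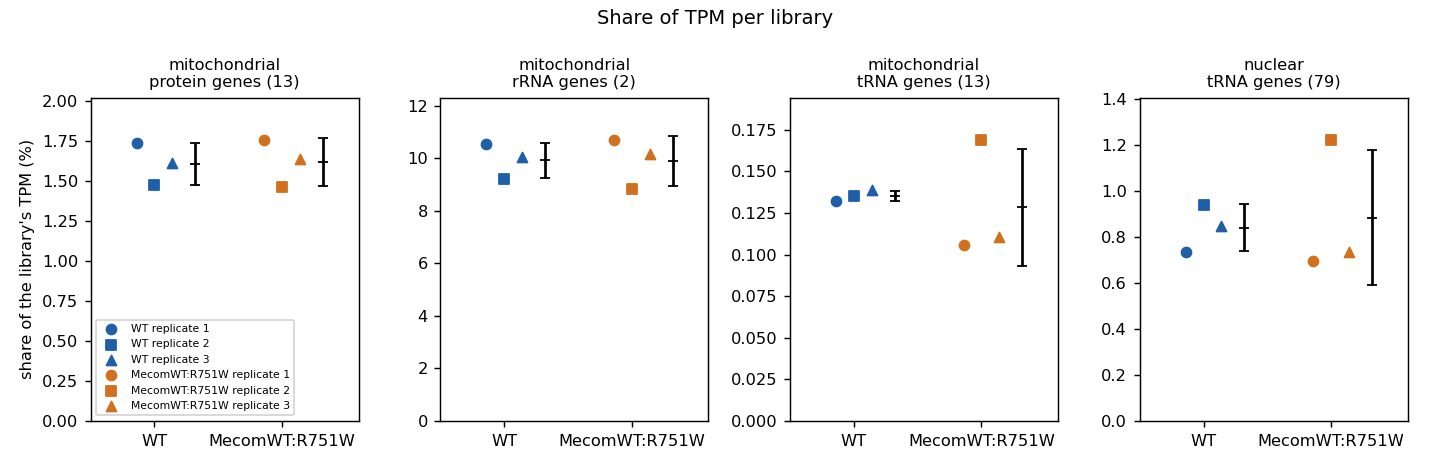
Share of each library's TPM (percent, each axis from 0) held by the mitochondrial protein, rRNA and tRNA genes and, for comparison, by nuclear tRNA genes, with 1 point per library and bars for the group mean ± SD. The protein shares of the groups overlap between 1.46% and 1.76%, and MecomWT:R751W replicate 2 has the highest tRNA share, 0.169%.

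Complex I, which takes electrons from NADH, has 7 subunits in the mitochondrial genome, and their levels ranged from the lowest to the fourth highest of the 13. The level of ND5, one of the proton-pumping membrane subunits, was 1760, 1489 and 1664 TPM in the WT libraries and 1786, 1487 and 1677 TPM in the MecomWT:R751W libraries. For ND4, another of these pumping subunits, the values were 940.2, 802 and 871 TPM in WT and 929.8, 755 and 888 TPM in MecomWT:R751W. Both genes were lowest in replicate 2 of each genotype, and their groups overlapped. ND2, the third antiporter-like pumping subunit, stood at 756, 626 and 659 TPM in WT against 693, 663 and 695 TPM in MecomWT:R751W. ND1, which lies where quinone binds, gave 1298, 1083 and 1086 TPM in WT against 1237, 1077 and 1202 TPM in MecomWT:R751W. Of ND2 and ND1 too, the groups overlapped, and WT replicate 1 was highest. ND6, a membrane subunit and the single protein gene read from the other strand, measured 1405, 1252 and 1330 TPM in WT and 1384, 1354 and 1327 TPM in MecomWT:R751W. ND3, a small membrane subunit, was the lowest of the 13 in every library, at 266, 199 and 229.9 TPM in WT and 247, 226 and 216 TPM in MecomWT:R751W. ND6 had the smallest spread within groups of the 13, with an SD of 0.06 on the log2(TPM + 1) scale.

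ND4L, a small membrane subunit of complex I, was the only protein gene whose groups did not overlap. Its level was 636.5, 579 and 601 TPM in WT and 550.3, 445 and 570.2 TPM in MecomWT:R751W. All 3 MecomWT:R751W libraries were below all 3 WT libraries, replicate 2 by the most. The log2 fold change was -0.22 with a standard error of 0.13, and it did not pass the test, with a limma p of 0.124 and an adjusted p of 0.958 over all genes. Of all 16655 genes tested, 4.7% had all MecomWT:R751W libraries below all WT libraries, against 1 of the 13 here, and 4.5% had them all above, against 0 of the 13. Leaving out MecomWT:R751W replicate 2 moved the log2 fold change to -0.11. The unadjusted limma p of ND4L depended on the setting. It was 0.0383 (adjusted 0.524) with median ratio scaling and 0.0331 (adjusted 0.527) with rescaling over protein-coding rows. With limma-voom on the reads recovered from the TPM it was 0.0242 (adjusted 0.437), and with array weights 0.169 (adjusted 0.753). With each library scaled to the sum of the 13 protein genes, ND4L took 3.67%, 3.93% and 3.73% in WT and 3.14%, 3.05% and 3.48% in MecomWT:R751W. That was a log2 fold change of -0.23 with a standard error of 0.09, an unadjusted limma p of 0.0292 and an adjusted p of 0.532.

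Complex III, which passes electrons to cytochrome c, has CYTB as its mitochondrial subunit, and complex IV, which reduces oxygen, has 3. CYTB had 2239, 1775 and 1956 TPM in WT and 2215, 1764 and 2093 TPM in MecomWT:R751W. COX1, the catalytic subunit that holds the oxygen-reducing centre, had 2330, 2009 and 2278 TPM in WT and 2465, 1911 and 2413 TPM in MecomWT:R751W. CYTB and COX1 were lowest in replicate 2 of each group, and COX1 was higher than CYTB in all 6 libraries. COX2, which accepts electrons from cytochrome c, had 1171, 1081 and 1148 TPM in WT and 1334, 991 and 1161 TPM in MecomWT:R751W. COX3, the third core subunit, had 842, 760.2 and 852 TPM in WT and 951, 719.8 and 868 TPM in MecomWT:R751W. For COX2 and COX3 the highest and the lowest library of the 6 were both MecomWT:R751W, replicates 1 and 2, so the WT values lay inside the range of the other group.

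ATP synthase has ATP6, the part of the proton channel that faces the rotor, and ATP8, a small subunit of its stalk. ATP6 was read at 1689, 1442 and 1634 TPM in WT and at 1681, 1462 and 1481 TPM in MecomWT:R751W. ATP8 was read at 2011, 1641 and 1817 TPM in WT and at 2079, 1772 and 1780 TPM in MecomWT:R751W. ATP8 exceeded ATP6, with which it shares an mRNA, in every library, and both groups overlapped for each gene.

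**Figure D2:**
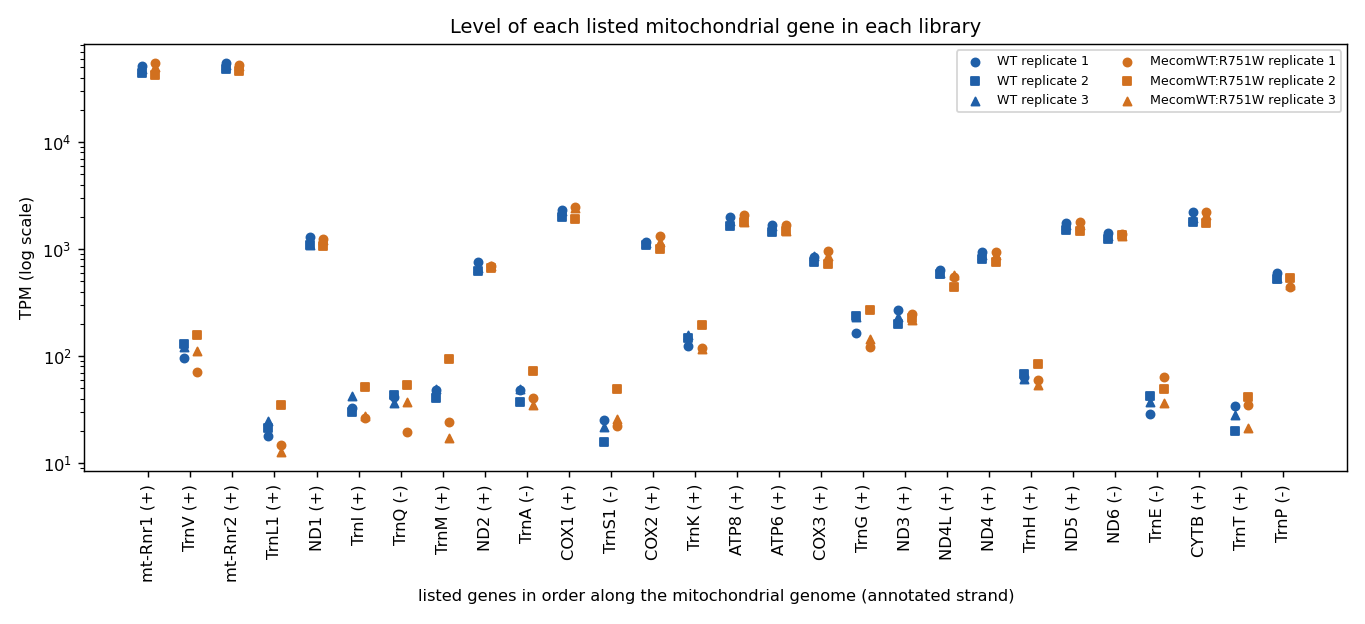
Level of each member and of the 2 rRNA rows in TPM (log axis) in the order of the genes along the genome, with the annotated strand, and 1 point per library coloured by genotype. The protein genes lie between 199 and 2465 TPM and the tRNA genes between 12.7 and 597 TPM, with TrnP standing above the other tRNA genes.

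The order of the protein genes by mean level over the 6 libraries was COX1 (2234 TPM), CYTB (2007), ATP8 (1850), ND5 (1644), ATP6 (1565), ND6 (1342), ND1 (1164), COX2 (1148), ND4 (864), COX3 (832), ND2 (682), ND4L (564) and ND3 (230.8). Of the 12 pairs of neighbours in this order, 9 kept their order in all 6 libraries. CYTB and ATP8, ND1 and COX2, and ND4 and COX3 changed places in at least 1 library and are not separated. The ratio of the summed protein genes to the summed rRNA genes was nearly fixed, at 16.01% to 16.5% of the rRNA level in the 6 libraries. As a share of the TPM of the 13, the 7 complex I genes took 38.9% to 41.1%, the 3 complex IV genes 24.8% to 27.1%, the 2 ATP synthase genes 19.9% to 22.1% and CYTB 12.0% to 12.9%.

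Between the genotypes, 9 of the 13 protein genes had a log2 fold change above 0 and 4 below, with a median of 0.02 and a range of -0.22 to 0.04. Over all 16655 genes tested, 49.0% were above 0, 51.0% below, and the median was -0.00372. No protein gene passed the limma test at an adjusted p under 0.05, and none had an unadjusted p under 0.05, whereas 0.0% and 5.97% of all genes did, the latter being 995 genes. The test called 0 genes in all, and limma-voom on the implied reads called 24 higher and 29 lower, none of them a member. Standard errors of the protein genes were 0.13 to 0.16 on the log2(TPM + 1) scale, on which small changes of low genes are understated. The genes of complex I, III, IV and ATP synthase other than ND4L all lay within 0.05 of 0.

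**Figure D3:**
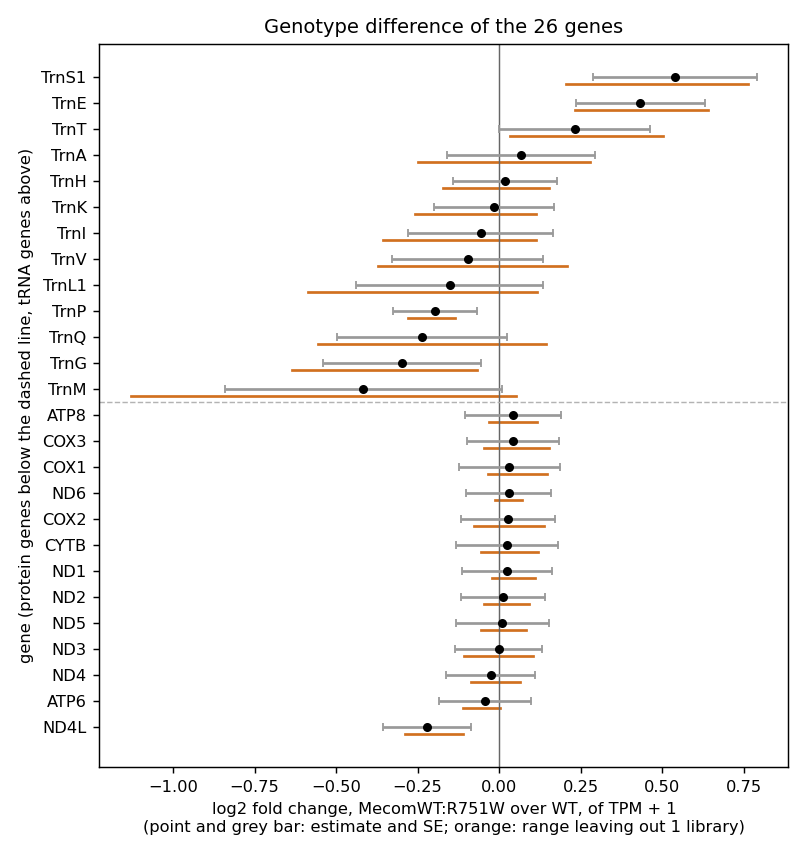
Log2 fold change of each member, MecomWT:R751W over WT, on the log2(TPM + 1) scale from limma, with grey bars of 1 standard error and orange bars for the range with single libraries left out, tRNA genes above the dashed line and protein genes below it. The protein genes other than ND4L (-0.22) lie close to 0, and the tRNA genes spread from -0.42 to 0.54 with wider bars.

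Ratios of neighbouring genes within a library are free of the library's overall mitochondrial level. ND4L over ND4 was 0.677, 0.722 and 0.689 in WT and 0.592, 0.590 and 0.642 in MecomWT:R751W. The ratio was lower in all 3 MecomWT:R751W libraries than in any WT library. ATP8 over ATP6 was 1.19, 1.14 and 1.11 in WT and 1.24, 1.21 and 1.202 in MecomWT:R751W, and here all MecomWT:R751W values were the higher ones. Of the 78 ratios between protein genes, 10 had groups that did not overlap (12.8%). For levels of single genes, which are an unlike measure, the share was 9.19% of all genes tested. The 10 ratios included 9 of the 12 ratios with ND4L, all lower in MecomWT:R751W, which share the values of that gene and add nothing to its own. Neither ratio above was tested, since 3 libraries against 3 allow no exact p below 0.1. ND6 over ND5, the pair on opposite strands, was 0.798, 0.841 and 0.799 in WT and 0.775, 0.910 and 0.791 in MecomWT:R751W, and its groups overlapped.

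**Figure D4:**
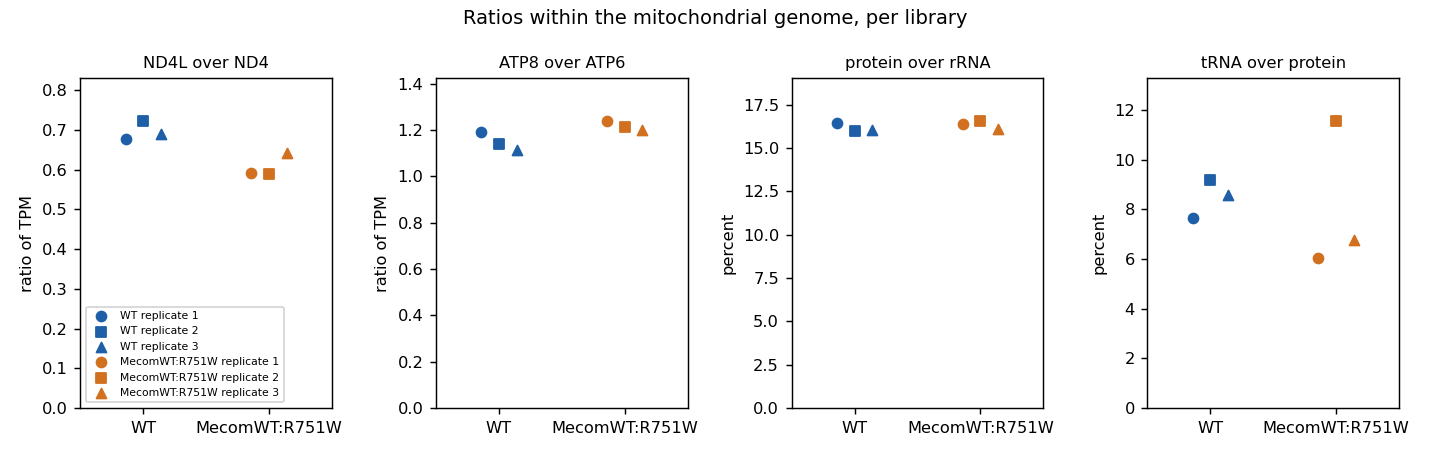
Ratios of TPM within each library for ND4L over ND4, ATP8 over ATP6, summed protein over summed rRNA genes (percent) and summed tRNA over summed protein genes (percent), each axis from 0, with 1 point per library. ND4L over ND4 is 0.677 to 0.722 in WT and 0.590 to 0.642 in MecomWT:R751W, and protein over rRNA lies between 16.01% and 16.5% in all libraries.

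The proteins of the mitochondrial genome work with a larger number of subunits encoded in the nucleus. The 80 nuclear-encoded respiratory chain subunits summed to 0.367% to 0.439% of the TPM, so the mitochondrial genes were 3.63 to 4.02 times as high. This ratio was 4.02, 4.02 and 3.97 in WT and 4.00, 3.63 and 3.94 in MecomWT:R751W, overlapping, with replicate 2 of MecomWT:R751W lowest. Of the nuclear subunits, 51 of 80 had a log2 fold change above 0, with a median of 0.05, and none passed the limma test.

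Relative to their lowest gene, the tRNA genes covered a wider range of mean levels than the protein genes, but only through TrnP. Means ran from 21.1 to 515 TPM for the tRNA genes and from 230.8 to 2234 TPM for the protein genes. The next tRNA gene, TrnG, had a mean of 195 TPM. TrnP, which carries proline and lies at the far end of the coding genes next to the control region, had 597, 521 and 530.1 TPM in WT and 439, 536 and 465 TPM in MecomWT:R751W. TrnG had 165, 236 and 229.5 TPM in WT and 122, 269 and 145 TPM in MecomWT:R751W. TrnK, for lysine, had 125, 146 and 156 TPM in WT and 119, 197 and 117 TPM in MecomWT:R751W. TrnP was the highest in every library, and the order TrnP, TrnG, TrnK, TrnV and TrnH held in all 6 libraries. TrnT, for threonine, abuts TrnP on the opposite strand, and its level was 33.8, 19.98 and 27.8 TPM in WT and 35.2, 41.2 and 21.3 TPM in MecomWT:R751W. TrnP over TrnT was 12.5 to 26.1 across the libraries, with no separation of the groups. TrnL1, which lies between mt-Rnr2 and ND1, had 17.8, 21.1 and 24.8 TPM in WT and 14.8, 35.1 and 12.7 TPM in MecomWT:R751W, from 8 to 21 reads per library. The 8 tRNA genes below TrnH, with means of 21.1 to 47.0 TPM, were not separated in order from their neighbours.

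TrnE, TrnA and TrnS1 are read from the minus strand. TrnE, beside CYTB, had 29.0, 42.3 and 37.1 TPM in WT and 64.3, 49.1 and 36.2 TPM in MecomWT:R751W. TrnS1, beside COX1, had 25.1, 15.9 and 21.9 TPM in WT and 22.1, 49.1 and 25.9 TPM in MecomWT:R751W. TrnA, for alanine, had 48.3, 37.0 and 48.9 TPM in WT and 40.2, 72.8 and 34.5 TPM in MecomWT:R751W. All 3 genes had overlapping groups, with a single MecomWT:R751W library standing highest. The log2 fold change was 0.43 with a standard error of 0.20 for TrnE, whose limma p was 0.047 and adjusted p 0.825. Leaving out MecomWT:R751W replicate 1 took the log2 fold change of TrnE to 0.23. TrnE had only 15 to 32 reads per library, and limma-voom on these reads gave a standard error of 0.40 and a p of 0.306. TrnS1 had a log2 fold change of 0.54 with a standard error of 0.25, an unadjusted limma p of 0.0513 and an adjusted p of 0.843. Without MecomWT:R751W replicate 2 its log2 fold change was 0.20. From its 9 to 27 reads per library, limma-voom gave TrnS1 a standard error of 0.49 and a p of 0.29. TrnP had a log2 fold change of -0.20 with a standard error of 0.13, an unadjusted p of 0.154 and a limma adjusted p of 0.99.

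Of the 13 tRNA genes, 5 had a log2 fold change above 0 and 8 below, with a median of -0.06 and a range of -0.42 to 0.54. None passed the limma test, and 1 of the 13, TrnE, had an unadjusted limma p under 0.05, against 5.97% of all genes tested. No tRNA gene had groups that did not overlap, against 9.19% of all genes tested. Within the groups, the median SD of log2(TPM + 1) was 0.43 for the tRNA genes, 0.14 for the protein genes and 0.19 for all genes. The tRNA genes were counted from 76 to 1652 reads over the 6 libraries and the protein genes from 3831 to 165051.

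The libraries of the 2 classes did not move together. MecomWT:R751W replicate 2 was the highest library for 11 of the 13 tRNA genes (84.6%), where it was the highest for 6.3% of all genes tested. It was also the highest for 55 of 79 nuclear tRNA genes (69.6%) and for 126 of 219 snoRNA genes (57.5%). The protein genes moved much as all genes did. Replicate 2 of 1 genotype or the other was the lowest library for all 13, in MecomWT:R751W for 8 and in WT for 5. This held for 67.7% of all genes. Relative to its WT mean, the median protein gene stood at -0.116 in WT replicate 2 and -0.135 in MecomWT:R751W replicate 2. The median of all genes tested stood at -0.122 and -0.12 there, on the log2(TPM + 1) scale. As a percent of the TPM of nuclear protein-coding genes, the 13 protein genes summed to 6.113, 6.042 and 5.913 in WT and 6.275, 5.957 and 6.008 in MecomWT:R751W. On that scale replicate 2 was the lowest of its group in MecomWT:R751W but not in WT. The median tRNA gene stood 0.47 above its WT mean on the log2(TPM + 1) scale in MecomWT:R751W replicate 2, and at -0.32 and -0.27 from it in replicates 1 and 3. The summed tRNA genes were 7.63%, 9.17% and 8.59% of the level of the summed protein genes in WT, and 6.02%, 11.5% and 6.75% in MecomWT:R751W.

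**Figure D5:**
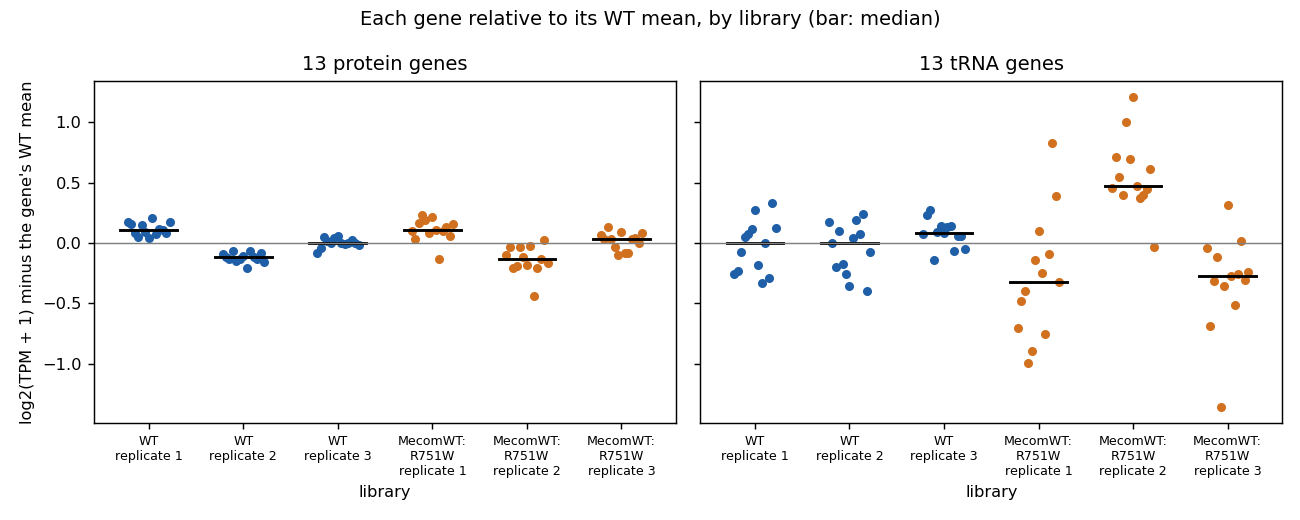
Each member's log2(TPM + 1) minus its mean over the WT libraries, by library, for the 13 protein genes and the 13 tRNA genes, with a bar at the median. The tRNA medians are near 0 in WT, at 0.47 in MecomWT:R751W replicate 2 and at -0.32 and -0.27 in MecomWT:R751W replicates 1 and 3.

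TrnM, the tRNA for methionine that also starts every mitochondrial protein, showed this most and was chosen for that after its values were seen. It had 48.3, 40.6 and 48.9 TPM in WT and 24.1, 92.8 and 17.3 TPM in MecomWT:R751W, from 25, 23, 29, 12, 51 and 10 reads. The exact 95% Poisson interval of the level, which covers counting error only, was 69.1 to 122 TPM for MecomWT:R751W replicate 2 and 12.5 to 42.1 TPM for replicate 1. These 2 intervals of 1 group do not meet. Nor did those of the same 2 libraries meet for TrnV, TrnG and TrnK, while for the other tRNA genes they overlapped. For TrnG they were 93.4 to 157.5 TPM in replicate 1 and 227.5 to 316.9 TPM in replicate 2. The log2 fold change of TrnM was -0.42 with all libraries, 0.05 without MecomWT:R751W replicate 3, and -1.13 without MecomWT:R751W replicate 2, where the limma adjusted p was 0.119. That was the smallest adjusted p of any member in any setting tried. In that setting 0.119 was also the smallest over nuclear tRNA genes, snoRNA genes and all genes tested, so it is not particular to TrnM. With all libraries, limma-voom gave TrnM an unadjusted p of 0.38.

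The direction of the tRNA genes depended on which MecomWT:R751W library was left out. Without replicate 1, 10 of the 13 were above 0, with a median log2 fold change of 0.11, and without replicate 3, 9 were above 0, with a median of 0.11. Without replicate 2, 10 were below 0, with a median of -0.28, and this fall follows from leaving out the library in which most of them were highest. Over all genes 38.3% were then below 0 and the median was 0.05. In that setting 7 of the 13 had both remaining libraries below every WT library, against 6.9% of all genes, 20 of 79 nuclear tRNA genes and 98 of 219 snoRNA genes. The median was -0.26 for nuclear tRNA genes, with 66 of 79 below 0, and -0.30 for snoRNA genes, with 173 of 219 below 0. The share of TPM of nuclear tRNA genes was 0.735%, 0.941% and 0.847% in WT and 0.698%, 1.22% and 0.733% in MecomWT:R751W. The part of this common movement of short RNAs in the tRNA values was not tested.

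Genes of the nucleus that make, cut, modify and charge mitochondrial RNA were counted by list. No gene of the 5 lists passed the limma test, and the median log2 fold changes were 0.04 for the 21 genes of transcription and DNA upkeep, 0.02 for the 23 of RNA processing, -0.04 for the 17 of tRNA modification, 0.04 for the 22 aminoacyl-tRNA synthetases and -0.01 for the 7 tested regulators of mitochondrial content. Polg2, the accessory subunit of the mitochondrial DNA polymerase, had 13.4, 14.3 and 11.4 TPM in WT and 10.1, 6.97 and 8.56 TPM in MecomWT:R751W. All MecomWT:R751W libraries were lower, with a log2 fold change of -0.56, a standard error of 0.17, an unadjusted p of 0.0058 and a limma adjusted p of 0.544. Yrdc, which makes the precursor of a modification next to the anticodon of tRNAs that read codons starting with A, in the cytosol and in mitochondria, had 29.8, 27.9 and 22.6 TPM in WT and 19.8, 15.8 and 15.3 TPM in MecomWT:R751W. Its groups did not overlap either, with a log2 fold change of -0.62, a standard error of 0.16, an unadjusted p of 0.00152 and a limma adjusted p of 0.344. In the order of the lists above, groups did not overlap for 3 of 21, 0 of 23, 2 of 17, 1 of 22 and 0 of 7 genes. Over all genes tested this share was 9.19%. An unadjusted limma p under 0.05 was found for 1, 1, 1, 0 and 0 genes of the lists, against 5.97% of all genes tested.

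Among the other named genes of these lists, log2 fold changes were 0.32 for Ssbp1, which coats single-stranded mitochondrial DNA, 0.37 for Mterf1a, a transcription terminator, and 0.22 for Dna2, a nuclease and helicase. In RNA processing they were 0.48 for Fastkd3, -0.27 for Ptcd1, -0.16 for the poly(A) polymerase Mtpap and 0.12 for the nuclease Pnpt1. Qtrt1, a subunit of the enzyme that inserts queuosine, was at -0.38, the thiolating enzyme Trmu at 0.20 and the dioxygenase Alkbh1 at -0.13. Ears2, which charges TrnE, was at -0.31, Lars2, which charges the leucine tRNAs, at 0.30, Yars2 at 0.23 and Cars2 at 0.21. The regulators Yy1, Pprc1, Gabpb1 and Ppargc1b lay between -0.10 and 0.06 with changing signs when single libraries were left out. With single libraries left out, the log2 fold changes ran from 0.20 to 0.40 for Ssbp1, 0.16 to 0.55 for Mterf1a, -0.40 to -0.16 for Ptcd1, -0.24 to -0.06 for Mtpap, 0.03 to 0.17 for Pnpt1, -0.48 to -0.23 for Qtrt1, 0.10 to 0.28 for Trmu, -0.25 to -0.01 for Alkbh1, 0.10 to 0.57 for Lars2, 0.12 to 0.37 for Yars2 and 0.10 to 0.32 for Cars2. The Lars2 row was at 899.8, 1718 and 1067 TPM in WT and 1304, 1682 and 1407 TPM in MecomWT:R751W, and WT replicate 2 was also the highest library of the rRNA row Rn18s-rs5, with 65015 TPM against 27594 to 52154 TPM elsewhere. Whether reads of rRNA enter the Lars2 row was not tested.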

How the data were processed

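The deposited table gave TPM per gene and library, as made by the authors. Per the submitters' processing notes the authors used mm10 and DESeq2, without stated roles. The aligner, counter, strand option and gene models were not given in the sources used here. Kits for rRNA depletion, poly-A selection and low input are listed in the labels, without saying which of them made these libraries. All 18465 symbols matched RefSeq names, and coordinates are of GRCm38.

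Values were tested as log2(TPM + 1) with limma 3.58.1 in R 4.3.3, with an intensity trend, on 16655 genes with a mean TPM of at least 1, two-sided, with Benjamini-Hochberg adjustment over all of them and a threshold of 0.05. Reads were recovered from the TPM as whole multiples for 99.94% of genes, and limma-voom was run on them as an alternative. On simulated data with 100 genes changed 2-fold and 100 changed 4-fold, the fit called 68 and 99, with 7 false calls. The noise was normal and drawn independently per gene, and only genes with a mean log2(TPM + 1) above 3 were changed. Shifts common to many genes of a library and counting noise of genes with few reads were not simulated. The numbers called therefore do not carry over to the tRNA genes. Named were all protein genes, the 3 highest, the 3 lowest and the 3 tRNA genes of smallest p, those at fixed places in the genome, and up to 4 genes of smallest p per nuclear list. Members and lists were chosen with earlier results of these data known. Alternatives changed the pseudocount, filter, trend, scaling, weights, replicate block and libraries.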

Additional observations from a re-analysis of the deposited data

How the results depend on the processing

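No member passed the adjusted threshold under any alternative, and the smallest limma adjusted p was 0.119 with 1 library left out and 0.437 in the other settings. The limma fit called 0 genes over the whole table, 2 with a mean TPM of at least 5, 1 with array weights, 53 with limma-voom on implied reads, and 0 to 13 with single libraries left out; the largest number came without MecomWT:R751W replicate 1. With single libraries left out the median log2 fold change ranged from -0.047 to 0.082 for the protein genes and from -0.279 to 0.113 for the tRNA genes, so neither median kept its sign. The difference in TPM share of the tRNA genes, -0.00697 percentage points, ranged from -0.0272 to 0.00437 with single libraries left out, was above 0 without MecomWT:R751W replicate 1 and without replicate 3, and was -1.17e-05 without TrnP. Shares have no value under the settings of pseudocount, filter, trend, weights, block and voom.

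The direction turned, without any call, for 4 protein genes and 2 tRNA genes in settings that kept all libraries. Rescaling without small RNA rows gave log2 fold changes of -0.000276 for ND2 and -0.00229 for ND5. ND3 was at 0.00849 with median ratio scaling, 0.00127 with rescaling over protein-coding rows and 0.000959 with limma-voom. Array weights gave 0.0178 for ND4, -0.18 for TrnA and -0.0621 for TrnH. The causes were not tested. With single libraries left out, the log2 fold changes of the protein genes other than ND4L ran from -0.0214 to 0.109 for ND1, -0.0452 to 0.0905 for ND2, -0.0354 to 0.148 for COX1, -0.0783 to 0.136 for COX2, -0.0325 to 0.116 for ATP8, -0.111 to 0.00321 for ATP6, -0.0472 to 0.153 for COX3, -0.107 to 0.103 for ND3, -0.087 to 0.0635 for ND4, -0.0566 to 0.0831 for ND5, -0.0128 to 0.0698 for ND6 and -0.0549 to 0.12 for CYTB. Those of 8 tRNA genes ran from -0.373 to 0.207 for TrnV, -0.585 to 0.115 for TrnL1, -0.356 to 0.112 for TrnI, -0.555 to 0.143 for TrnQ, -1.13 to 0.0528 for TrnM, -0.248 to 0.279 for TrnA, -0.259 to 0.113 for TrnK and -0.172 to 0.154 for TrnH. Those of 4 nuclear regulators ran from -0.21 to 0.00384 for Yy1, -0.144 to 0.00336 for Pprc1, -0.0252 to 0.112 for Gabpb1 and -0.0436 to 0.157 for Ppargc1b.

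With the replicate block the limma fit called 0 genes. The block cannot move a log2 fold change in this balanced design, so the medians of 0.023 for the protein genes and -0.057 for the tRNA genes say nothing of stability. Same-numbered libraries of the 2 genotypes correlated at 0.14, 0.089 and 0.083 in their deviations from the group means, so the numbers were not taken as pairs, although every library correlated best with its own number, a hint from the data and not from the design. The tRNA genes rest on 8 to 305 reads per gene and library. The counting intervals of TrnM, TrnV, TrnG and TrnK in MecomWT:R751W replicates 1 and 2 do not meet.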

Other observations

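The 13 open reading frames hold 3790 codons in the RefSeq sequences. Across the 13 listed tRNA genes the mean level did not rise with the number of codons each tRNA reads, with a Spearman correlation of -0.22 over genes, which share libraries and are not independent replicates. The other 9 tRNA genes are outside this correlation, among them TrnL2, which reads the most codons of all, 444. TrnP, the highest at 515 TPM, reads 196 codons, and TrnI, for isoleucine, reads 373 and was at 34.9 TPM. The start codon was ATG in 9 of the 13 protein genes, and 3 genes, COX3, ND4 and CYTB, end without a full stop codon.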
